A study of Mus musculus with 72 samples.

Results

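The genes that build cholesterol and fatty acids were followed through 6 stages of experimental stroke in mouse brain under 4 feeding regimens. They are 32 of the 35275 Ensembl gene identifiers in the deposited count table, matched by symbol through the GENCODE M21 annotation of GRCm38. All 32 were found, and all 32 passed the filter on low counts in each fit. They comprise 8 mevalonate and isoprenoid enzymes, 10 enzymes from squalene to cholesterol, 4 regulators and sterol transport genes, 8 fatty acid synthesis enzymes and 2 sterol efflux transporters.

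Cells make cholesterol from acetyl-CoA by way of mevalonate, isoprenoid diphosphates and squalene, and they draw on the same acetyl-CoA pool for fatty acids. Low sterol in the endoplasmic reticulum lets the SREBP transcription factors, encoded by Srebf2 and Srebf1, leave their INSIG anchor and switch these enzymes on, while sterol excess acts through liver X receptors to raise the exporters Abca1 and Abcg1. The brain makes its own cholesterol because lipoproteins of the blood hardly cross into it, and oligodendrocytes, which wrap axons in cholesterol-rich myelin, and astrocytes are its main producers.

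All mice were C57BL/6 and 7 months old. Per the series' design text, stroke was induced by closing the middle cerebral artery for 1 h, and tissue came from a mid-coronal slice of the hemisphere that had been occluded. The EOD mice went without food for 24 h on alternate days, the IF12 and IF16 mice for 12 or 16 h of each day, and the AL mice ate ad libitum, with daily fasting kept up for 4 months. Whether EOD mice were sampled on a fed or a fasted day is not stated in the labels. The part of recent feeding in differences between regimens was not tested. The stages were sham, ischemia alone (1 h, not reperfused), and reperfusion for 3, 12, 24 or 72 h after it. Each of the 24 combinations has 3 libraries, so a stage has 12 and a regimen 18. Whether the 3 libraries of a group are from different mice is not stated in the labels, and p-values therefore measure the spread among samples, possibly a technical one. A section is a mixture of cells, and fewer cells of a type cannot be told apart from less RNA per cell.

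Library totals ran from 16735707 to 24763161 counts, and the 32 genes took between 0.34 and 0.513% of them, from 155 counts for 1 gene in 1 library up to 46960. All 10 mature oligodendrocyte markers, 8 astrocyte markers and 10 neuron markers had counts in every library. Markers of brain regions varied widely between libraries of 1 stage. In sham libraries the summed level of 10 striatal projection neuron markers ran from 784 to 3601 CPM (counts scaled to library size), and that of 5 choroid plexus markers from 31.97 to 3625 CPM. Libraries that stood apart were EOD replicate 1 at 3 h, with the lowest Fosb of its stage (45.8 CPM, the next lowest at 164 CPM), AL replicate 2 at 24 h, with the highest oligodendrocyte marker sum (23490 CPM, the next highest at 15250 CPM), and EOD replicate 2 at 72 h, with the highest choroid plexus sum (10020 CPM, the next at 4508 CPM).

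Per unit of length, the most abundant of the 32 transcripts in the 72 libraries was Scd2, the main brain stearoyl-CoA desaturase, at a mean of 280 FPKM (lowest library 205, highest 367). Fasn, the fatty acid synthase, followed at 124 FPKM and Acly, which makes cytosolic acetyl-CoA from citrate, at 93.5 FPKM. Hmgcs1, which makes HMG-CoA, was the most abundant cholesterol enzyme at 67.2 FPKM, and the remaining sterol enzymes averaged between 10.6 FPKM (Lss) and 49.2 FPKM (Fdps). Abca1 was the lowest of the 32 at 8.34 FPKM, with a range of 3.79 to 24.9 FPKM. This ranking rests on the gene lengths implied by the deposited FPKM, such as 3773 bases for Fasn and 3233 for Hmgcs1. Those lengths were not compared with transcript lengths, so the order of the genes is uncertain.

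At 3 h of reperfusion the cholesterol pathway was higher than in sham as a block, while fatty acid synthesis was not. With the 4 regimens averaged, edgeR's quasi-likelihood test with Benjamini-Hochberg adjustment over all 17268 genes tested called 16 of the 32 genes higher and 2 lower at an adjusted p under 0.05. Over all genes 10.7% were called higher and 11.1% lower in this contrast. Of the 18 enzymes between acetoacetyl-CoA and cholesterol, 14 rose and none fell, with a median log2 fold change of 0.45, against -0.01 over all genes tested. Of the 8 fatty acid enzymes, none rose and 1 fell, with a median of -0.02.

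**Figure D1:**
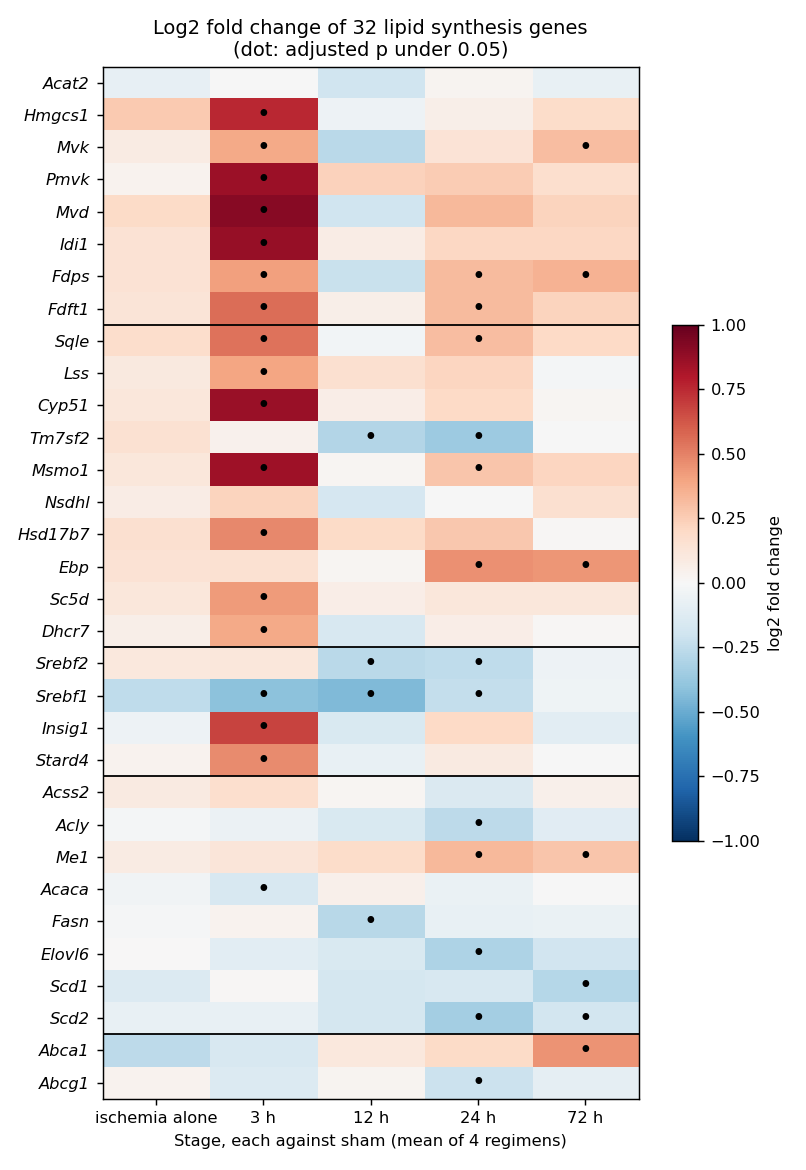
Log2 fold change of each of the 32 genes at 5 stages against sham, averaged over the 4 regimens, from the 72-library edgeR fit. Colour runs from blue (lower) to red (higher), dots mark an adjusted p under 0.05, and lines separate the 5 role groups. The 3 h column is red through the sterol enzymes, with 14 of 18 marked, and pale through the fatty acid enzymes.

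Among the mevalonate and isoprenoid enzymes, 7 of 8 rose at 3 h. Mvd, the decarboxylase that turns mevalonate diphosphate into isopentenyl diphosphate, had a lowest, median and highest level of 25.4, 52.1 and 67.3 CPM in the 12 libraries at 3 h, against 21.1, 25.5 and 35.2 CPM in sham. Its log2 fold change was 0.91 ± 0.14 (SE, adjusted p = 3.33e-06 by edgeR), and 10 of the 12 libraries at 3 h lay above every sham library. The remaining 2 libraries were AL replicates 1 and 3, at 25.4 and 31.7 CPM. Mvd lies at chr8:122433601-122443422 on the minus strand (GRCm38) and overlaps Gm20388 on the opposite strand, so its counts may hold reads of both. Idi1, the isomerase of the following step, had 36.3, 58.4 and 99.5 CPM at 3 h against 28.1, 31.7 and 38.7 CPM in sham, a log2 fold change of 0.87 ± 0.13 (edgeR adjusted p = 7.96e-07). For Idi1 the only library at 3 h inside the sham range was AL replicate 1. Pmvk, the phosphomevalonate kinase one step before Mvd, had 33.5, 55.7 and 87.8 CPM at 3 h against 25.0, 30.7 and 39.9 CPM in sham (log2 fold change 0.85 ± 0.12, edgeR adjusted p = 3.66e-07).

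The other risers of this branch were Hmgcs1, Fdft1, Fdps and Mvk. Hmgcs1 had 234, 311 and 410 CPM at 3 h against 169, 187 and 210 CPM in sham, so that its groups did not overlap, and its log2 fold change was 0.75 ± 0.11. Fdft1, the squalene synthase, rose by 0.56 ± 0.11, Fdps, which makes farnesyl diphosphate, by 0.41 ± 0.11, and Mvk, the mevalonate kinase, by 0.38 ± 0.10 on the log2 scale. Fdft1 overlaps Ctsb on the opposite strand, and whether the counting used strand is not given in the sources used here, so its value is uncertain. Acat2, the thiolase that makes acetoacetyl-CoA at the head of the pathway, had a log2 fold change of -0.00 and was not called, and its reads may also be shared with its near copy Acat3.

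Of the enzymes from squalene to cholesterol, 7 of 10 rose. Cyp51, the lanosterol demethylase, had 63.4, 93.8 and 164 CPM at 3 h against 50.3, 53.6 and 62.9 CPM in sham, with a log2 fold change of 0.87 ± 0.10 (edgeR adjusted p = 1.22e-08). Cyp51 lies at chr5:4081145-4104746 on the minus strand and overlaps Akap9 on the opposite strand. Every one of its 12 libraries at 3 h lay above every sham library, the closest being AL replicate 1. Msmo1, which removes methyl groups from the sterol ring, had 55.0, 83.3 and 129 CPM at 3 h against 41.6, 46.9 and 60.4 CPM in sham (0.84 ± 0.10, edgeR adjusted p = 6.12e-09). Sqle, the squalene epoxidase and a control point of the pathway, had 66.8, 82.7 and 122 CPM at 3 h against 47.3, 57.0 and 69.4 CPM in sham (0.54 ± 0.08, edgeR adjusted p = 1.85e-06).

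Smaller rises were called for Hsd17b7 (0.48), a keto reductase of demethylation, Sc5d (0.43), a sterol desaturase, Lss (0.40), the lanosterol synthase that closes the rings, and Dhcr7 (0.38), the reductase of the last step. Lss overlaps 4930483K19Rik on the opposite strand, and it lost its call without AL replicate 2 or without IF16 replicate 1 at 3 h, where its log2 fold change ran down to 0.32. Nsdhl, a dehydrogenase of demethylation (0.22), the isomerase Ebp (0.15) and the reductase Tm7sf2 (0.04) were not called.

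Promoters of 4 enzymes with large rises, Mvd, Idi1, Cyp51 and Hmgcs1, are printed below beside that of Fasn, a fatty acid enzyme that was not called at 3 h, to show the sequence next to the response. Each is the 150 bases before the transcription start in RefSeq on GRCm38.p6, written in the gene's direction, with CCAAT or its reverse ATTGG (the NF-Y box) and the sterol element TCACNCCAC in capitals.
Mvd, chr8:122443423-122443572 (-): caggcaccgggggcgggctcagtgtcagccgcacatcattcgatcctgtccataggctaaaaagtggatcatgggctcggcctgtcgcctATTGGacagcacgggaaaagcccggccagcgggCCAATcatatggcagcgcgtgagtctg
Idi1, chr13:8885456-8885605 (+): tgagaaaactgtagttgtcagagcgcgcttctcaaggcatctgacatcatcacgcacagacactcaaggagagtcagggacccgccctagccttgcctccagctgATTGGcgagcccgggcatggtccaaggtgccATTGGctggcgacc
Cyp51, chr5:4104698-4104847 (-): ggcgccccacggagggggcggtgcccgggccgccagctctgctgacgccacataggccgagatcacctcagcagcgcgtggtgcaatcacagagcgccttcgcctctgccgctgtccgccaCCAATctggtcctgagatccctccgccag
Hmgcs1, chr13:119690201-119690350 (+): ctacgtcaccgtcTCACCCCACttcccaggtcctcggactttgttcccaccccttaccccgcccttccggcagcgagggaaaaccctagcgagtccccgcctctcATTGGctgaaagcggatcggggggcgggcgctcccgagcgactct
Fasn, chr11:120824548-120824697 (-): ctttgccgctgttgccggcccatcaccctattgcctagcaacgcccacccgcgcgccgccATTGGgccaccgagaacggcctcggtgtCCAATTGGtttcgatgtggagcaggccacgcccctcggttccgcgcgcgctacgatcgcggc
The RefSeq table held a promoter of 300 bases, 250 before the start and 50 after it, for 25 of the 32 genes. CCAAT on either strand was in 21 of those 25 and in 41.1% of the 27025 genes in the table. It was in 12 of 12 of the matched genes that rose at 3 h and in 9 of 13 of the others. In Fasn a CCAAT and an ATTGG share bases. GGGCGG, the GC box bound by Sp factors, was in 21 of 25 and in 38.2% of all genes. The sterol element TCACNCCAC was in 1, Hmgcs1, where it reads TCACCCCAC, and in 1.44% of all genes, and its stricter form of 10 bases was in 0 of 25 and in 0.0999% of all genes. These matches describe letters within the windows and are not evidence of binding.

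**Figure D2:**
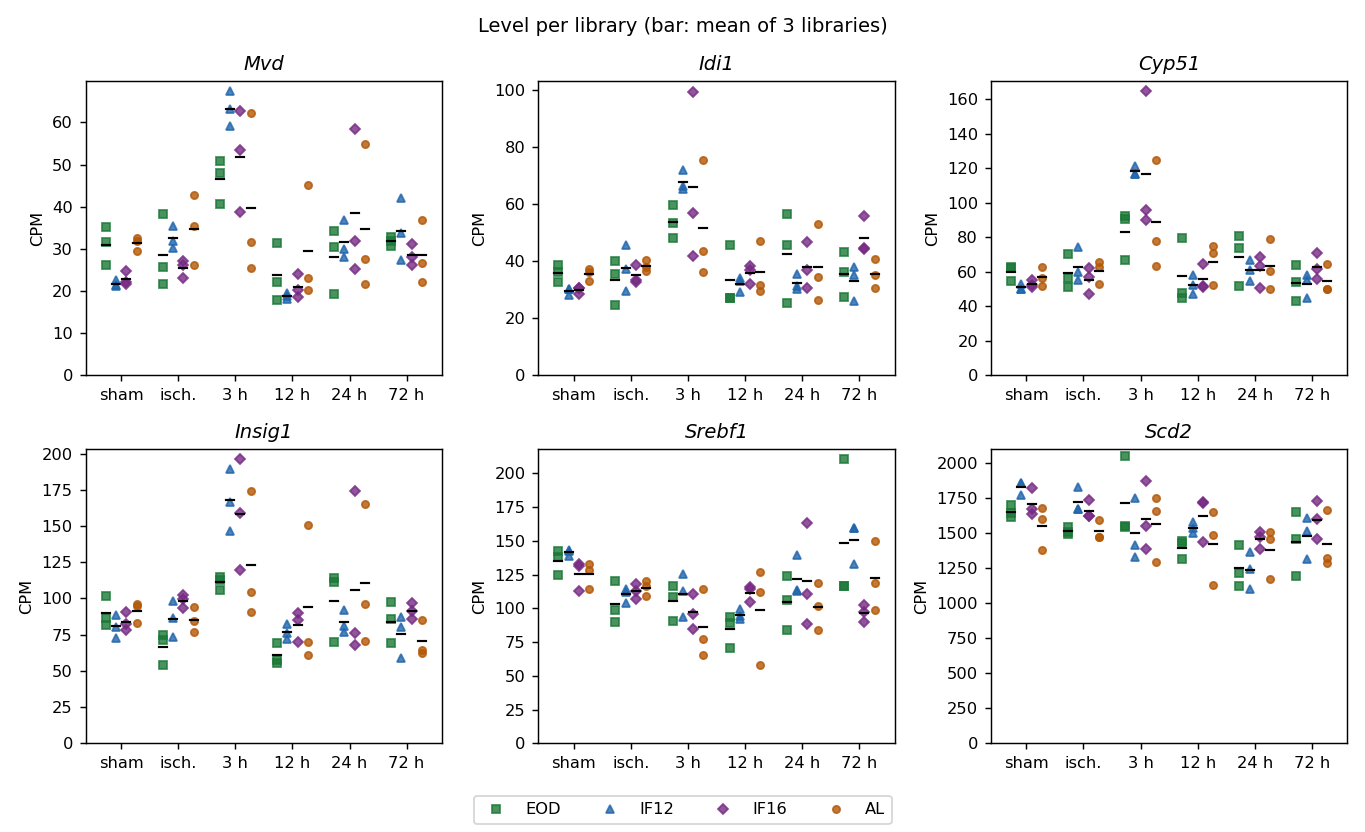
Levels in CPM of 6 of the genes in each of the 72 libraries, by stage and regimen, with a bar at the mean of the 3 libraries of a group (isch. is ischemia alone). Mvd, Idi1, Cyp51 and Insig1 peak at 3 h, where AL replicate 1 is low and AL replicate 2 high, while Srebf1 dips and Scd2 lies between 1291 and 2050 CPM at 3 h, across its sham range.

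The regulators did not move together at 3 h. Insig1, which holds the SREBP complex in the endoplasmic reticulum and is itself a target of it, had 90.3, 133 and 196 CPM at 3 h against 72.8, 84.8 and 102 CPM in sham (log2 fold change 0.68 ± 0.13, edgeR adjusted p = 0.000117). Stard4, a carrier that moves cholesterol between membranes, had 24.6, 36.2 and 48.6 CPM at 3 h against 17.6, 26.7 and 29.9 CPM in sham (0.47 ± 0.16, adjusted p = 0.0279 by edgeR). Its call was lost without AL replicate 2 at 3 h, IF16 replicate 1 at 3 h or IF12 replicate 1 of sham. Srebf1 went the other way, with 65.6, 102 and 125 CPM at 3 h against 113, 133 and 144 CPM in sham (-0.41 ± 0.10, edgeR adjusted p = 0.00251), and 8 of 12 libraries at 3 h lay below every sham library. Srebf1 overlaps Rai1 on the opposite strand, so its counts may hold reads of both. Srebf2, the factor most tied to sterol enzymes, had a median of 375 CPM at 3 h and 357 CPM in sham and was not called.

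With the regimens averaged, fatty acid synthesis showed little at this stage. Scd2 had 1291, 1547 and 2050 CPM at 3 h against 1377, 1674 and 1855 CPM in sham, and Fasn 444, 493 and 577 CPM at 3 h against 441, 494 and 514 CPM in sham. Neither was called, and the groups overlapped. Acaca, the acetyl-CoA carboxylase, was called lower by a small margin (-0.16 ± 0.06, edgeR adjusted p = 0.0481), and the call was lost when any of 23 of the 72 libraries was left out. Reads of Scd1 and Scd2 may be shared, since the genes are close copies. Acaca overlaps Gm11437 and Me1 overlaps A330041J22Rik, both on the opposite strand. Acss2 overlaps 5 counted genes, of which Gm20637 and Mipep-ps are on the same strand, so counts of these enzymes may hold other reads.

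The rise held with each library left out in turn, with 15 to 19 of the 32 genes called, and with 17 higher and 3 lower without the 3 libraries that stood apart. Mature oligodendrocyte markers had a summed level of 6309, 8146 and 15250 CPM (lowest, median, highest) at 3 h against 5129, 8700 and 10630 CPM in sham, and 5 precursor markers 53.7, 85.0 and 149 CPM at 3 h against 118, 132 and 149 CPM in sham. With the oligodendrocyte marker sum as a covariate 16 genes were called higher and 1 lower, and with the striatal, hippocampal and thalamic sums as covariates likewise 16 and 1. Both covariate fits were chosen after seeing the data. Astrocyte markers ran from 2746 to 5265 CPM at 3 h (median 4383) and from 4365 to 5606 CPM in sham (median 4941), with 6 of 12 libraries at 3 h below every sham library. Microglia markers had 132, 206 and 253 CPM at 3 h against 225, 258 and 283 CPM in sham, with 8 of 12 below every sham library. The part of both cell types in the result was not tested. Clock genes differed at 3 h against sham, Per1 by 1.12 ± 0.13 and Arntl by 0.42 ± 0.13 on the log2 scale. Dbp and Nr1d1 were not called. The hour of tissue collection is not given in the sources used here, and the part of the clock was not tested.

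**Figure D3:**
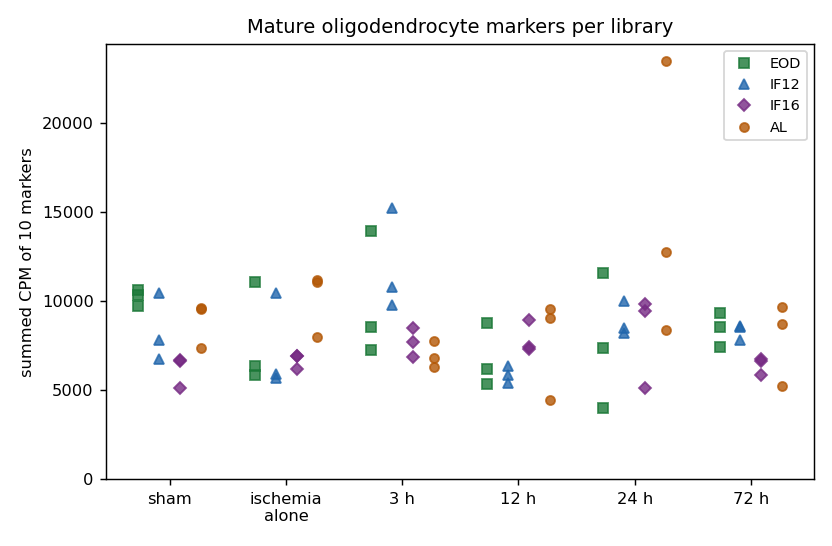
Summed CPM of 10 mature oligodendrocyte markers in each library, by stage and regimen. AL replicate 2 at 24 h, at 23490 CPM, stands above all others, and the libraries at 3 h overlap those of sham.

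In every library the mean log2 CPM of the 18 sterol enzymes gives the shape of the time course. The lowest, median and highest values were 5.02, 5.11 and 5.34 in sham, 5.10, 5.24 and 5.44 after ischemia alone, 5.27, 5.67 and 5.97 at 3 h, 4.94, 5.07 and 5.60 at 12 h, 4.87, 5.24 and 5.77 at 24 h, and 5.10, 5.31 and 5.48 at 72 h. All libraries at 3 h except AL replicate 1 lay above every sham library. The mean of the 8 fatty acid enzymes ran from 7.23 to 7.40 in sham (median 7.35) and from 7.22 to 7.45 at 3 h (median 7.29). Later it reached below the sham range, with 7.04 to 7.38 at 12 h, 6.99 to 7.33 at 24 h (median 7.19) and 6.97 to 7.41 at 72 h.

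**Figure D4:**
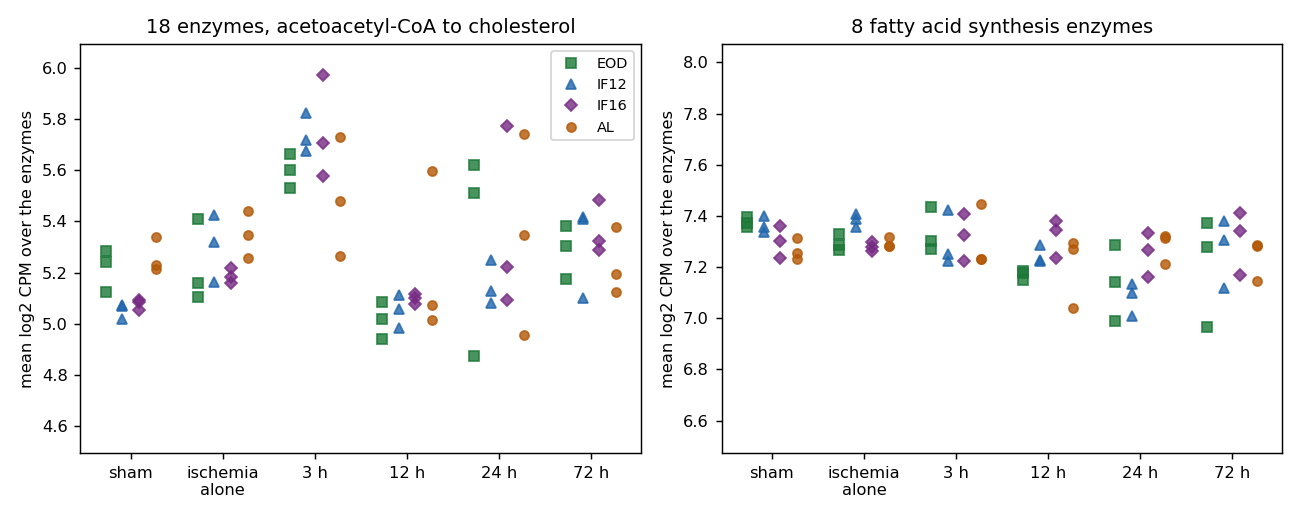
Mean log2 CPM over the 18 enzymes from acetoacetyl-CoA to cholesterol (left) and over the 8 fatty acid synthesis enzymes (right) in each library, by stage and regimen, on axes that do not start at 0 and span the same range. The sterol mean peaks at 3 h, returns at 12 h apart from AL replicate 1 at 5.60, and is widely spread at 24 h.

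Ischemia alone called none of the 32 genes in edgeR's test, where 24 of 17268 genes (0.139%) were called. Only 3 of the 32 had an unadjusted p under 0.05, DESeq2 also called 0 of the 32, and an edgeR fit of only the 2 stages called 1 higher and 1 lower. The 18 sterol enzymes had a median log2 fold change of 0.12 in this contrast, the largest being that of Hmgcs1 at 0.26. For Hmgcs1 9 of 12 libraries after ischemia alone lay above every sham library, and for Srebf1 6 of 12 lay below, though neither gene was called. Set directly against ischemia alone, 3 h had 12 genes higher and 1 lower, against 7.91 and 7.09% of all genes. Pmvk rose by 0.81 ± 0.12 and Cyp51 by 0.76 ± 0.10 on the log2 scale in that step, and Abcg1, a sterol exporter, was the 1 gene that fell, at -0.17 ± 0.06. The Abcg1 call was lost when any of 37 of the 72 libraries was left out, and also with either marker covariate fit, with no filter on low counts and with the replicate number as a block (the replicate block).

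By 12 h the sterol enzymes were back near sham. Against 3 h, 18 of the 32 genes fell and 2 rose, where 25.0% of all genes were called and 12.0% were lower. Mvd fell by 1.11 ± 0.14 on the log2 scale (edgeR adjusted p = 8.09e-08), Insig1 by 0.83 ± 0.13 and Msmo1 by 0.82 ± 0.10. Of the 18 sterol enzymes, 14 fell in this step and 0 rose. Fasn, flat until then, fell by 0.32 ± 0.07, while Acaca and Abcg1 rose by 0.21 and 0.17. The Abcg1 call of this step was lost when any of 13 of the 72 libraries was left out.

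Against sham, 12 h left 0 genes higher and 4 lower, with 11.8% of all genes called higher and 9.82% lower. Srebf1 had 58.1, 97.0 and 127 CPM at 12 h against 113, 133 and 144 CPM in sham (-0.44 ± 0.10, edgeR adjusted p = 0.00138). Srebf2 had 234, 274 and 439 CPM at 12 h against 311, 357 and 384 CPM in sham (-0.27 ± 0.07), and Fasn 366, 392 and 561 CPM at 12 h against 441, 494 and 514 CPM in sham (-0.28 ± 0.07). Tm7sf2, a sterol reductase that overlaps Vps51 on the same strand, fell by 0.29 ± 0.10, a call that was lost when any of 10 of the 72 libraries was left out, with either marker covariate fit and with no filter. AL replicate 1 at 12 h was the exception in the stage, with 439 CPM of Srebf2, 151 CPM of Insig1 and 45.1 CPM of Mvd, each the highest of the 12 libraries at 12 h. Without it the count rose to 11 called genes, without EOD replicate 1 at 12 h to 7 and without IF16 replicate 1 at 24 h to 7, with the 3 region sums as covariates it fell to 1, and without the 3 libraries that stood apart 6 genes were called, all lower. Clock genes differed in the same contrast, Dbp by -1.28 ± 0.14 and Arntl by 0.53 ± 0.13, and the hour of tissue collection is not given in the sources used here, so the part of the clock was not tested.

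At 24 h, 5 of the 18 sterol enzymes rose and 1 fell against sham, while of the 8 fatty acid enzymes 1 rose and 3 fell. Among all 32 genes, 6 rose and 7 fell, where 49.8% of all genes were called, 25.4% higher and 24.3% lower, so the share called was below that of all genes. Ebp, a sterol isomerase that was not called at 3 h, had 13.1, 20.3 and 22.7 CPM at 24 h against 11.0, 14.0 and 16.7 CPM in sham (0.46 ± 0.09, edgeR adjusted p = 2.02e-05). Sqle (0.31), Fdft1 (0.31), Fdps (0.32) and Msmo1 (0.28) were the other sterol enzymes called higher, and Tm7sf2 was called lower (-0.37).

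Fatty acid enzymes gave 3 of the genes that fell at 24 h. Scd2 had 1098, 1376 and 1508 CPM at 24 h against 1377, 1674 and 1855 CPM in sham (-0.34 ± 0.07, edgeR adjusted p = 2.82e-05). Elovl6, which elongates palmitate, had 35.4, 45.5 and 55.3 CPM at 24 h against 46.7, 56.7 and 63.2 CPM in sham (-0.31 ± 0.08), and Acly fell by 0.26 ± 0.07. Me1, the malic enzyme that supplies NADPH, went up, with 34.6, 59.6 and 64.5 CPM at 24 h against 34.1, 45.0 and 52.3 CPM in sham (0.32 ± 0.08). Abcg1 had 70.0, 79.6 and 97.8 CPM at 24 h against 89.2, 94.9 and 110 CPM in sham (-0.21 ± 0.06), with 9 of 12 libraries below every sham library, and Srebf2 (-0.26) and Srebf1 (-0.24) were the other genes that fell. The call of Srebf1 was lost when any of 20 of the 72 libraries was left out, with the region sums as covariates and without the 3 libraries that stood apart.

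Against 12 h, 10 genes rose at 24 h and 2 fell, where 16.4 and 15.8% of all genes did. Fdps rose by 0.54 ± 0.11 on the log2 scale (edgeR adjusted p = 0.000467), Mvd by 0.53 ± 0.14 and Ebp by 0.44 ± 0.09. Insig1 rose by 0.35 and Fasn by 0.21, while Abcg1 fell by 0.24 and Scd2 by 0.17. Leaving out a library lost the call of Insig1 in 10 of 72 fits, that of Fasn in 2 and that of Scd2 in 14, and all 3 were lost without the 3 libraries that stood apart. Of all the genes called in this step, Fdps alone kept its call with the 3 region sums as covariates. The calls of Mvd, Insig1 and Fasn were also lost with the oligodendrocyte sum, while those of Fdps, Ebp, Abcg1 and Scd2 were kept there. Without IF16 replicate 1 at 24 h the rise of Insig1 was 0.20, and with the oligodendrocyte sum as a covariate it was 0.16.

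The mean log2 CPM of the 18 sterol enzymes had an SD of 0.30 over the 12 libraries at 24 h, the largest of the 6 stages. Insig1 had 165 CPM in AL replicate 2 and 174 CPM in IF16 replicate 1 at 24 h, and between 67.6 and 114 CPM in the other 10, and the same 2 libraries were highest for Mvd at 54.9 and 58.4 CPM. Neither Insig1 nor Mvd was called. Fdps and Fdft1 lost their calls without AL replicate 2 or without IF16 replicate 1, Fdps also without EOD replicate 1, and Msmo1 without IF16 replicate 1, where the log2 fold change of Fdft1 was 0.18. Without the 3 libraries that stood apart 4 genes were called higher and 6 lower. Astrocyte markers summed to 2437, 3177 and 4414 CPM at 24 h against 4365, 4941 and 5606 CPM in sham, with 11 of 12 libraries below every sham library, and their part in the result was not tested. Striatal markers were far lower at 24 h, with 240, 426 and 968 CPM against 784, 2231 and 3601 CPM in sham, and with the 3 region sums as covariates 0 of the 32 genes and 323 of 17268 genes were called. In that fit Acly had a log2 fold change of 0.13, opposite in sign to the value above. Less striatum in the section and loss within it cannot be told apart here.

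At 72 h, 5 genes were called higher and 2 lower than in sham, against 27.2% of all genes called, 16.1% higher and 11.0% lower. Ebp stayed high, with 13.2, 18.04 and 28.2 CPM at 72 h against 11.0, 14.0 and 16.7 CPM in sham (0.44 ± 0.09, edgeR adjusted p = 9.70e-05). Fdps (0.35), Mvk (0.31) and Me1 (0.28) were also higher, and Scd1 (-0.29) and Scd2 (-0.18) lower. Leaving out a library lost the call of Mvk in 2 of 72 fits, that of Scd1 in 10 and that of Scd2 in 7, and all 3 were lost with the region sums and without the 3 libraries that stood apart. The calls of Fdps and Me1 were also lost with the region sums, while that of Ebp was kept. Abca1, which loads cholesterol onto apolipoproteins, had 35.8, 45.8 and 128 CPM at 72 h against 22.4, 43.9 and 60.5 CPM in sham (0.45 ± 0.17, edgeR adjusted p = 0.0410). Its 4 libraries above the sham range were AL replicate 3 at 128 CPM, IF12 replicates 2 and 3 at 107 and 63.9 CPM and EOD replicate 2 at 80.4 CPM. The call was lost when any of 23 of the 72 libraries was left out, with a log2 fold change of 0.29 without AL replicate 3 at 72 h. It was also lost with the region sums, with no filter, in a fit of only the 2 stages and without the 3 libraries that stood apart.

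Microglia markers at 72 h ran from 257 to 803 CPM (median 412) against 225 to 283 CPM in sham (median 258), and 9 monocyte and macrophage markers from 6.24 to 143 CPM (median 18.9) against 3.97 to 10.46 CPM in sham (median 6.18). AL replicate 3 had the highest microglia sum of the stage at 803 CPM and IF12 replicate 2 the next at 729 CPM. EOD replicate 2 had the highest monocyte and macrophage sum at 143 CPM. The part of these cells in the Abca1 result was not tested. Without the 3 libraries that stood apart 3 genes were called at 72 h, all higher, without EOD replicate 2 or IF12 replicate 2 alone 4, and with the region sums as covariates 2. Between 24 and 72 h, Tm7sf2 (0.36), Srebf2 (0.21) and Acss2 (0.20), the cytosolic acetyl-CoA synthetase, rose and none fell, against 12.9 and 11.6% of all genes. Leaving out a library lost the call of Srebf2 in 15 and that of Acss2 in 14 of 72 fits, and both were lost with the region sums.

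Within regimens, the response at 3 h was called in the daily fasted mice. In the 18-library fits, 15 of the 32 genes were higher and 4 lower in IF12, 11 higher and 0 lower in IF16, and none called in EOD or AL. Of the 19 calls in IF12, 13 were kept without replicate 2 at 3 h and 14 without sham replicate 2 or sham replicate 3. Of the 11 calls in IF16, 4 were kept without sham replicate 3, 6 without sham replicate 2 and 7 without replicate 1 at 3 h. Over all genes, 0.0548% were called in EOD, 29.4% in IF12, 8.62% in IF16 and 0.0365% in AL, so the counts of the 32 genes moved with those of all genes. Of the 8 fatty acid enzymes, IF12 had 1 called higher, Acss2 (0.38), and 2 lower, Acly (-0.54) and Acaca (-0.42). Leaving out an IF12 library lost the call of Acss2 in 11 of 18 fits, that of Acaca in 3 and that of Acly in 0. EOD had 7 and AL 5 of the 32 with an unadjusted p under 0.05 at 3 h. Summed over the 5 stroke contrasts, and not at 3 h alone, DESeq2 called 1 higher and 5 lower in EOD and 1 higher in AL.

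The 18 sterol enzymes had a median log2 fold change of 0.41 in EOD, 0.59 in IF12, 0.73 in IF16 and 0.34 in AL. Mvd had 48.02, 50.8 and 40.6 CPM in EOD libraries at 3 h, against 31.6, 26.2 and 35.2 CPM in EOD sham. In IF12 it had 67.3, 59.1 and 63.2 CPM at 3 h against 21.1, 21.4 and 22.7 CPM in sham (1.53 ± 0.14, edgeR adjusted p = 1.65e-05). In IF16 it had 62.8, 53.5 and 38.8 CPM at 3 h against 24.9, 22.2 and 21.8 CPM in sham (1.18 ± 0.24, edgeR adjusted p = 0.0101). The AL libraries had 25.4, 62.3 and 31.7 CPM at 3 h, against 32.6, 31.96 and 29.6 CPM in AL sham. Groups at 3 h and sham did not overlap in the 3 fasted regimens, while in AL 1 library was far above sham and the other 2 near it.

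Fdps, the farnesyl diphosphate synthase, had 58.2, 85.7 and 73.3 CPM in EOD, 89.9, 87.3 and 75.6 CPM in IF12, 78.5, 67.1 and 74.9 CPM in IF16 and 52.9, 56.3 and 62.5 CPM in AL at 3 h. Against their own sham its log2 fold changes were 0.25 ± 0.25 in EOD, 0.79 ± 0.16 in IF12, 0.75 ± 0.14 in IF16 and -0.16 ± 0.25 in AL. Those of Hmgcs1 were 0.71 ± 0.21 in EOD, 0.64 ± 0.13 in IF12, 0.99 ± 0.22 in IF16 and 0.66 ± 0.23 in AL. Srebf1 was lower than sham in each, between -0.36 and -0.54.

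**Figure D5:**
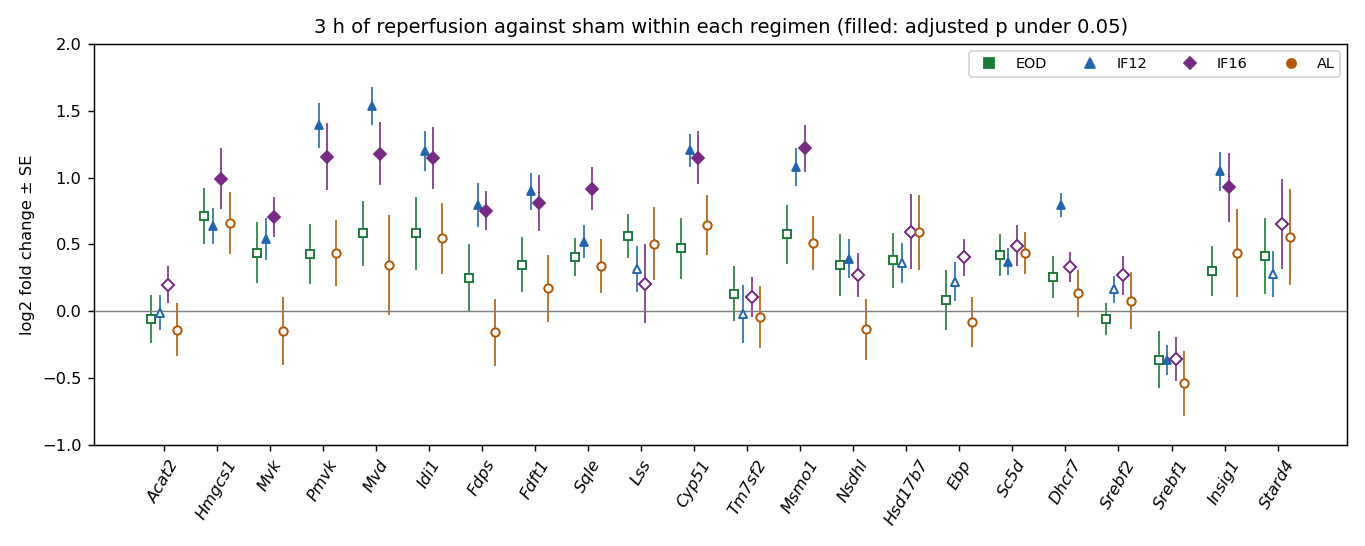
Log2 fold change at 3 h against sham within each regimen for the 18 sterol enzymes and 4 regulators, with the standard error, from edgeR fits of 18 libraries each. Filled symbols have an adjusted p under 0.05, and these are found in IF12 and IF16. Of the 18 enzymes, 12 are above 0 in all 4 regimens.

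Across the regimens, which share no library, 12 of the 18 sterol enzymes had a fold change above 0 at 3 h in all 4, and 0 were below 0 in all 4. Of the 15987 genes tested in every regimen, 13.6% were above sham in all 4. For the 8 fatty acid enzymes the count was 1. After ischemia alone, 8 of the 18 sterol enzymes were above sham in all 4 and 0 below, against 10.8% of all genes above. At 24 h it was also 8 of 18 sterol enzymes above, against 25.2% of all genes, and 1 below. Of the 8 fatty acid enzymes, 3 were below sham in all 4 at 24 h, against 21.7% of all genes.

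At the later stages, IF12 had 4 higher and 5 lower at 24 h, among them Elovl6 (-0.64 ± 0.12), Scd2 (-0.56 ± 0.11), Acly (-0.55 ± 0.12), Me1 (0.55 ± 0.13) and Mvd (0.55 ± 0.14), with 40.7% of all genes called. At 72 h IF12 had 5 higher and 1 lower, where 24.5% of all genes were called, with Mvd at 0.65 ± 0.14 and Elovl6 at -0.45 ± 0.12. In 1 fit of all 72 libraries the IF12 calls of Mvd at 24 and 72 h were lost, and the other IF12 calls named here were kept. IF16 had Mvd (0.76 ± 0.24), Ebp (0.68 ± 0.14) and Fdps (0.63 ± 0.14) higher at 24 h, where 16.5% of all genes were called. EOD had Srebf2 lower at 24 h (-0.44 ± 0.12), where 5.72% of all genes were called, and that call was absent in 12 of the 18 fits that left out 1 EOD library. In IF16 the Mvd call at 24 h was lost in 7 of the 18 such fits, with a log2 fold change of 0.34 without replicate 1 at 24 h, and that of Fdps in 1, and both were lost in 1 fit of all 72 libraries. After ischemia alone and at 12 h, edgeR called none of the 32 in any fasted regimen. The shares of all genes called after ischemia alone were 0.0% in EOD, 0.0487% in IF12 and 0.0122% in IF16, and 1, 10 and 0 of the 32 had an unadjusted p under 0.05. At 12 h the shares were 0.0609% in EOD, 0.0122% in IF12 and 0.0856% in IF16, with 10, 5 and 1 of the 32 at an unadjusted p under 0.05. At 72 h none was called in EOD or IF16 (0.0 and 0.483% of all genes), with 1 and 10 at that level. No gene of the 32 was called at any stage in AL by edgeR, where the 5 contrasts called between 0 and 1161 of 16452 genes (0.0, 0.0365, 1.6, 7.06 and 5.12% in stage order) and 0 to 5 of the 32 had an unadjusted p under 0.05.

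The test of whether stroke responses differed between regimens called none of the 32 genes and 17 of all 17268 genes (0.0984%). It has 15 degrees of freedom, and 6 of the 32 had an unadjusted p under 0.05. The lowest adjusted p was 0.119, for Acly, and DESeq2 called 3. Without EOD replicate 2 at 72 h edgeR called 1, and without the 3 libraries that stood apart also 1. Over all genes DESeq2 called 2228 of 17268, and edgeR without those 3 libraries 1564 of 17462.

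Within the 3 h stage, IF12 was set against AL directly, and 2 genes were called where 8.75% of all genes were. Fdps was higher in IF12 (0.56 ± 0.15, edgeR adjusted p = 0.0393), with the levels given above, which do not overlap. Acly had 203, 186 and 161 CPM in IF12 against 249, 274 and 277 CPM in AL (-0.54 ± 0.14, edgeR adjusted p = 0.0373). Both calls were lost in every fit that left out 1 of the IF12 or AL libraries at 3 h. EOD and IF16 against AL called none of the 32 at 3 h by edgeR, with 5 and 3 at an unadjusted p under 0.05 and with 0.277 and 0.0% of all genes called. DESeq2 called 5 over the 3 contrasts at 3 h, IF12 included.

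In sham mice, edgeR's main test called no difference between fasting and AL, while other settings called some. Against AL sham, the 18 enzymes had a median log2 fold change of -0.07 in EOD, -0.23 in IF12 and -0.25 in IF16, and 0, 10 and 11 of them had an unadjusted p under 0.05, while edgeR called 0 of the 32 in each contrast and 0 of 15981 genes (0.0%). DESeq2 called 29, 22 and 2702 of all genes in these contrasts, and edgeR with the replicate block 1207 in IF16. Mvd had 31.6, 26.2 and 35.2 CPM in EOD sham, 21.1, 21.4 and 22.7 CPM in IF12 sham, 24.9, 22.2 and 21.8 CPM in IF16 sham and 32.6, 31.96 and 29.6 CPM in AL sham, so IF12 and IF16 lay below every AL library. Its log2 fold change was -0.53 ± 0.11 in IF12 (edgeR adjusted p = 0.426) and -0.47 ± 0.11 in IF16 (edgeR adjusted p = 0.0648). Fdps had 63.7, 55.4 and 63.2 CPM in EOD sham, 51.5, 45.4 and 48.4 CPM in IF12 sham, 45.2, 43.2 and 43.2 CPM in IF16 sham and 68.5, 70.5 and 53.2 CPM in AL sham.

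These contrasts share the AL sham libraries. DESeq2 called 9 genes over the 3 sham contrasts, 1 higher and 8 lower, edgeR with the replicate block 4, and edgeR called 11 when AL replicate 3 of sham was left out and 7 when IF12 replicate 1 was. The lower sham levels of IF12 and IF16 also enter their folds against sham at every stage. At 3 h Mvd reached 63.2 ± 4.11 CPM in IF12 and 51.7 ± 12.1 CPM in IF16, against 39.8 ± 19.8 CPM in AL (SD, n = 3 each). Oligodendrocyte markers summed to between 9764 and 10630 CPM in EOD sham, 6751 and 10500 CPM in IF12 sham, 5129 and 6706 CPM in IF16 sham and 7359 and 9636 CPM in AL sham, and their part in these differences was not tested.

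Averaged over the 6 stages, EOD, IF12 and IF16 each called 0 of the 32 genes against AL by edgeR, and 0, 0 and 1 of 17268 genes (0.0, 0.0 and 0.00579%). For IF16 DESeq2 called 75 genes, and edgeR 77 without the 3 libraries that stood apart. DESeq2 also called 0 of the 32 in each, and 1, 2 and 4 of them had an unadjusted p under 0.05. Fold changes lay between -0.27 and 0.16 on the log2 scale.

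Of 43 further genes of lipid metabolism, all tested, 5 rose and 3 fell at 3 h, where 10.7% of all genes were called higher and 11.1% lower, with a median log2 fold change of -0.01. The largest rises were those of Ch25h, which makes an oxysterol from cholesterol (2.85 ± 0.48), Elovl4 (0.38) and Elovl5 (0.30), which elongate long fatty acids, and Aacs, the acetoacetyl-CoA synthetase (0.37). Mlxipl, a glucose-responsive factor of lipogenesis (-0.90 ± 0.18), Gpam, which starts glycerolipid synthesis (-0.39), and Vldlr, a lipoprotein receptor (-0.29), fell.

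At the later stages, Ch25h was higher than sham by 2.94 at 12 h, 3.97 at 24 h and 2.96 at 72 h, and Plin2, a lipid droplet coat protein, by 1.26, 2.56 and 2.37, all called by edgeR. At 12 h 4 of the 43 rose and 9 fell, against 11.8 and 9.82% of all genes, also with Mylip (0.27) and Lrp8 (0.24) higher and with Mlxipl (-0.48), Fads2 (-0.39), Abca7 (-0.34) and Cyp46a1 (-0.31), the neuronal enzyme of cholesterol turnover, lower. At 24 h 7 rose and 13 fell, against 25.4 and 24.3% of all genes, with Elovl1 (0.72) and Nr1h3 (0.32), a liver X receptor, higher, and Mlxipl (-0.92), Cyp46a1 (-0.52), Elovl2 (-0.39) and Cyp27a1 (-0.38) lower. At 72 h 9 rose and 1 fell, against 16.1 and 11.0% of all genes, with Npc2 (0.66), which moves cholesterol out of lysosomes, and Nr1h3 (0.47) higher and Cyp46a1 (-0.27) lower. None of the 43 was called after ischemia alone, and 3 had an unadjusted p under 0.05.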

How the data were processed

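Messenger RNA was sequenced from 72 brain libraries, 3 in each of 24 groups. The submitters' processing notes name TopHat2, CASAVA and DESeq2 without versions and the build GRCm38 (mm10), and the counting rule, its use of strand and the hour of collection are not given in sources used here. Per the labels' protocols, RNA integrity numbers were above 7. The authors deposited whole read counts per Ensembl gene, which every test used, and FPKM, which equal those counts per length and per library total (relative deviation at most 1.8e-07 over 1453690 values) and served to compare levels between genes. Symbols were found for 34490 of 35275 identifiers, and 785 had none. Every pair of libraries of a group differed by more than sampling noise (chi-square per gene 5.48 to 192.81 over 72 pairs).

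Levels (CPM) are counts scaled by library total and by TMM factors of 0.912 to 1.094, and genes were filtered with filterByExpr. The main test was edgeR 4.0.16's quasi-likelihood F test in R 4.3.3, with Benjamini-Hochberg adjustment over all genes tested and a threshold of 0.05. A group-means fit of 72 libraries gave contrasts averaged over regimens or stages and the interaction, fits of 18 libraries gave stages within a regimen, and fits of 12 gave regimens within a stage. Standard errors (SE) are the fold change divided by the square root of F. DESeq2 1.42.0 was the alternative test, and the others were DESeq2 size factors, no filter, a replicate block, other sets of libraries and each library left out. When a library was left out of the 72-library fit, the trended dispersion and filter of the full fit were reused. When it was left out within a regimen or a stage, both were estimated anew. Covariate fits and the fit without 3 libraries were chosen after seeing the data. The code was tested on simulated data.

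The members and lists were chosen with earlier results of these data known. By rule all 32 members were named, values were printed for the 3 per role group with the largest stage change (both transporters), and up to 4 called genes per direction and stage were named of 43 further lipid genes. Levels of Hmgcs1, Fasn, Srebf2, Ebp, Fdps and Acly were added after their values were seen. Same-numbered libraries did not deviate together (mean r -0.00631 over 828 pairs, 184 of them over 0.1), so replicate numbers were not taken as pairs. Percentages and ranges of CPM cover these libraries only, and intervals for counting error were not needed at 155 or more counts per gene and library.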

Additional observations from a re-analysis of the deposited data

How the results depend on the processing

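At 3 h against sham, 17 to 20 of the 32 genes were called under every alternative listed here and 15 to 19 with each library left out. The other counts moved as follows. Ischemia alone against sham gave 2 genes in a fit of only the 2 stages, and 0 with any library left out. At 12 h (4 genes) the 3 region sums as covariates gave 1, and leaving out a library gave 3 to 11, with 11 without AL replicate 1, 7 without EOD replicate 1 and 7 without IF16 replicate 1 at 24 h. At 24 h (13 genes) the region sums gave 0, with Acly at 0.13 in place of -0.26, and leaving out a library gave 10 to 16. At 72 h (7 genes) the region sums gave 2, the oligodendrocyte sum 11, only the 2 stages 11, and the fit without 3 libraries 3, and leaving out a library gave 4 to 8, with 4 without EOD or IF12 replicate 2. The 4 steps between stages (48 calls in all) gave 34 with the region sums, 40 with no filter and 42 to 53 with a library left out. Regimens averaged over stages stayed at 0. For the interaction (0) DESeq2 gave 3 and the fit without 3 libraries 1, and leaving out a library 0 to 1. Summed over 5 contrasts, AL (0) gave 1 under DESeq2, under 1 fit of 72 libraries and with no filter, and 0 to 1 with a library left out (1 without AL replicate 2 at 72 h). EOD (1) gave 6 under DESeq2 and under 1 fit of 72 libraries, 0 with no filter and 0 to 6 with a library left out (6 without EOD replicate 2 at 72 h). IF12 (34) gave 22 in 1 fit of 72 libraries and 21 to 44 with a library left out (21 without sham replicate 2 or 3). IF16 (14) gave 5 to 22 (22 without replicate 1 at 24 h, 5 without sham replicate 3 and 8 without sham replicate 2). For fasting in sham (0), DESeq2 gave 9, no filter 1 and leaving out a library 0 to 11. After ischemia alone (0) leaving out a library gave 0 to 3, the 3 without IF12 replicate 2. At 3 h (2) DESeq2 gave 5 and leaving out a library 0 to 5 (5 without AL replicate 2, 4 without IF16 replicate 1). At 24 h (0) DESeq2 gave 1, and 12, 24 and 72 h gave 0 with any library left out. The 43 further genes (51 calls) gave 19 with the region sums and 45 to 56 with a library left out.

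With the replicate block, fasting in sham gave 4 genes, fasting at 3 h 0 and EOD 0, while 3 h against sham kept a count of 18. The numbers mark no known pairing, and 18 of 72 libraries correlated best with their own number. Of 141 called values, 134 kept their call under the block and 141 under DESeq2. The causes of these shifts were not tested. Depth of 16735707 to 24763161 counts leaves no member near its counting limit, and 3 libraries per group limit the within-regimen and within-stage tests.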

Other observations

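Some libraries with high sterol enzyme levels for their stage had low microglia marker sums. AL replicate 1 at 12 h had a mean log2 CPM of 5.60 over the 18 sterol enzymes and a microglia sum of 150 CPM. AL replicate 2 at 24 h had 5.74 and 136 CPM, and IF16 replicate 1 at 24 h had 5.77 and 145 CPM. AL replicate 2 at 3 h had 5.73 and 132 CPM, the lowest microglia sum of its stage. Others did not go this way: EOD replicates 1 and 3 at 24 h had 5.62 and 5.51 with 259.6 and 235.6 CPM, and IF12 replicate 2 at 12 h had the lowest microglia sum of its stage, 149 CPM, with 5.11. All these libraries were picked after their values were seen, and no test was made of the relation.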
